A study of Mus musculus with 27 samples.

Results

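The liver makes most of the proteins of the complement and coagulation systems and releases them into the blood. Of 39 such genes listed by name, 33 had a probe set of their own on the array, that is, a group of probes that the array annotation assigned to that gene and no other. All 33 passed the minimum signal and were among the 13603 genes tested, of 18820 with a probe set. The probe sets of C4b, Masp2 and Klkb1 were assigned to another gene as well and were left out. C3, Cfd and Cpb2 were not analysed here. Membership follows the known function of each gene, but the list was chosen with earlier results of these data known.

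Complement and coagulation are both cascades of inactive enzyme precursors, each cut and switched on by the enzyme before it. Complement starts from antibody, from mannose-binding lectins that recognise sugars on microbes, or on surfaces directly, and ends in the membrane attack complex, a pore built from C5b, C6, C7, C8 and C9. Coagulation ends with thrombin cutting fibrinogen into fibrin, and several of its factors are modified by vitamin K-dependent carboxylation before hepatocytes secrete them.

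Liver RNA was measured in 27 male C57BL/6J mice of 12 months, 1 array per mouse, after diets begun at 9 weeks of age. The control group (C, 7 mice) ate the AIN-93W diet ad libitum, and the medium-fat group (MF, 7 mice) ate the AIN-93W-MF diet, with 25% of its energy as fat, ad libitum. The calorie-restricted group (CR, 6 mice) received 30% less energy than controls as AIN-93W-CR. The intermittent group (INT, 7 mice) alternated weekly between the MF diet ad libitum and 40% restriction, and was killed in an MF week. The CR portions were given once a day, and CR mice were the only group on restricted food in the week of death. All mice were fasted for 4 hours, gavaged with 0.5% carboxymethyl cellulose and fasted for another 6 hours. The comparisons ask how the liver of restricted and intermittently fed mice differs from that of mice fed ad libitum.

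Values below are log2 intensities, normalised across arrays, and a difference of 1 is a 2-fold change in intensity. Differences were tested with limma over all 13603 genes, and "called" means a Benjamini-Hochberg adjusted p below 0.05, with the SE of the difference in parentheses. The 3 comparisons against CR use the same 6 CR mice and are therefore not independent. Array medians lay between 5.21 and 5.27. Replicates 1 to 4 (16 arrays) and replicates 5 to 7 (11 arrays) differed in the spread of values within an array, with a mean interquartile range of 3.63 (SD 0.03) and 3.72 (SD 0.03). These are called array sets below, but the split was made here by replicate number, and the sample labels name no set or batch. The tests were also run within each set, which holds 4 mice per diet in the first and 3 of each diet but 2 of CR in the second. The summed linear intensity of 7 hepatocyte markers ranged from 63435 to 69234 in C, 61847 to 69112 in MF, 62505 to 68698 in INT and 67671 to 70311 in CR.

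In CR livers 14 of the 33 genes were called against C, 6 higher and 8 lower. Those 14 are 42.4% of the genes, where 17.5% of all genes tested were called, 8.46% higher and 9.05% lower. Against MF, 14 genes were called, 8 higher and 6 lower, beside 19.8% of all genes, 8.57% higher and 11.2% lower. Between INT and CR, 12 genes (36.4%) were called, 7 higher in INT and 5 lower, beside 15.0% of all genes, 8.37% higher and 6.62% lower. The median log2 difference of the 33 genes was 0.01 for CR against C, 0.01 for CR against MF and 0.03 for INT against CR, beside the medians over all genes tested, which were 0.004, -0.002 and -0.001. The genes thus moved in both directions and by very different amounts. The balance of directions changed with the scaling: when each array was centred on its median, 3 genes were higher and 8 lower in CR against MF, and 9 were higher and 1 lower in INT against CR. No called gene turned its direction under any of the 38 alternative settings. Of the 40 calls in the 3 comparisons, 10 were also made within both array sets, 11 in replicates 1 to 4 alone and 19 in neither set, each set having fewer mice.

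No difference was called between INT, MF and C livers. None of the 33 was called for INT against C, INT against MF or MF against C, and 0% of all 13603 genes were called in each of these comparisons. At an unadjusted p below 0.05, 1 of the 33 genes differed for INT against C, 6 for INT against MF and 1 for MF against C, beside 922, 1479 and 464 of all genes. The 6 genes of the INT and MF comparison were C6, C8b, C9, F7, F10 and Fga, with adjusted p between 0.388 and 0.431.

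**Figure D1:**
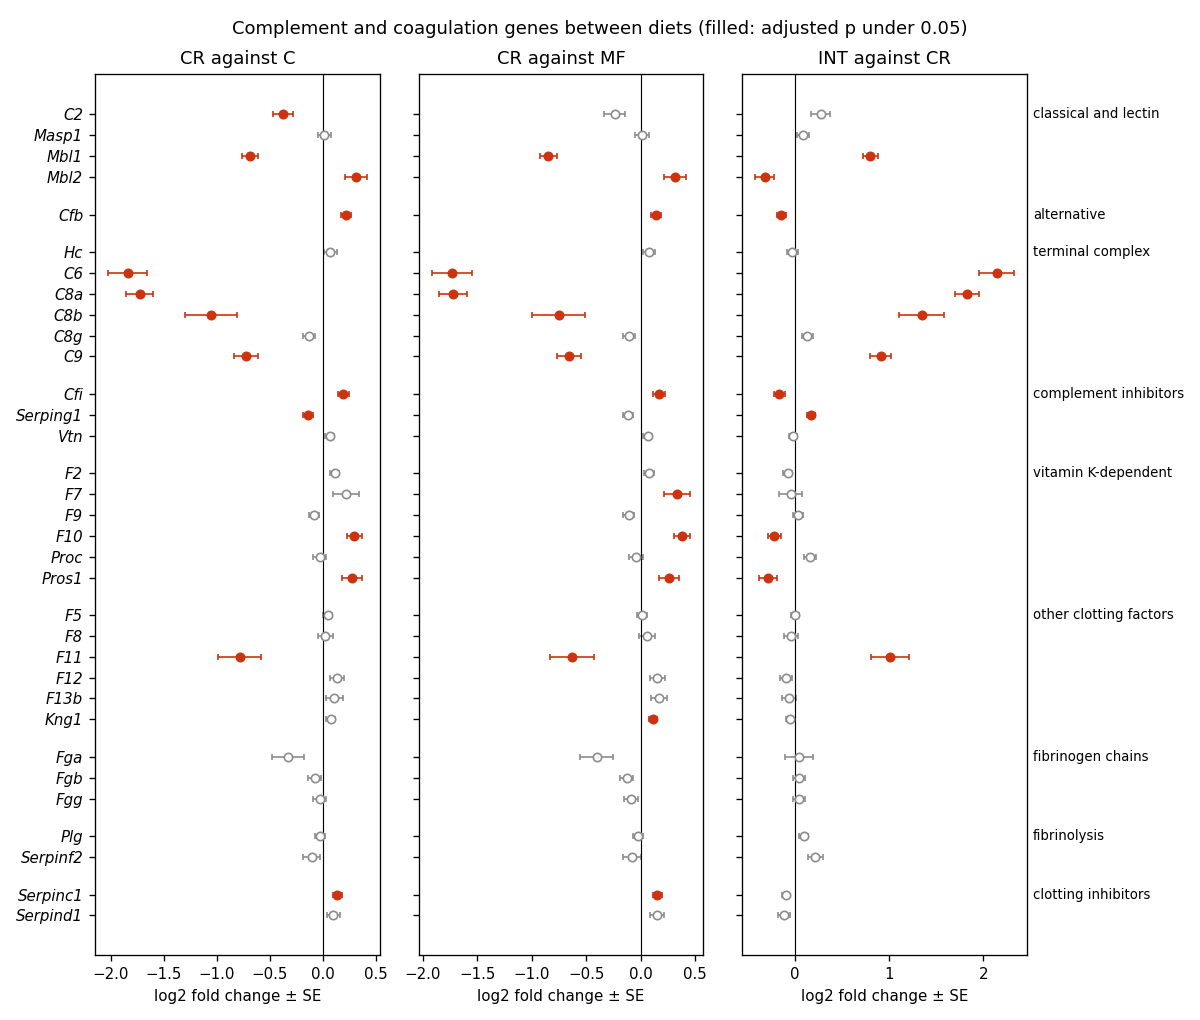
Log2 difference in intensity (horizontal axis, points with SE) of the 33 genes, ordered by role, for CR against C, CR against MF and INT against CR; filled red points have a limma adjusted p below 0.05 and open grey points do not. C6 and C8a lie farthest from 0 in all 3 panels, at -1.84 and -1.73 for CR against C.

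C6 and C8a, genes of the terminal complement complex, showed the largest differences in all 3 comparisons with CR, and C6, C8a, C8b and C9 were lower in CR than in each other diet. Of the 6 terminal genes tested, these 4 were called lower in CR against C and in CR against MF, and all 4 were called higher in INT against CR. That is 66.7% of the 6, beside 17.5%, 19.8% and 15.0% of all genes called in these comparisons. In the same directions, 9.05% and 11.2% of all genes were called lower and 8.37% higher. In bulk tissue, less RNA per cell and fewer cells of a type cannot be told apart.

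C6, which binds C5b and starts the assembly of the pore, ranged from 10.12 to 11.48 in C (median 10.43), from 9.94 to 11.05 in MF (median 10.32), from 10.51 to 11.14 in INT (median 10.94) and from 8.60 to 8.91 in CR (median 8.69). The highest CR mouse was more than 1 log2 unit below the lowest mouse of any other diet. C6 fell by 1.84 (SE 0.19, adjusted p = 9.39e-08) in CR against C, a 3.58-fold lower intensity, and the difference from MF was -1.73 (SE 0.19, adjusted p = 1.96e-07). It was 4.41-fold higher in INT than in CR (log2 difference 2.14, SE 0.19, adjusted p = 6.05e-09). The CR mice were also the most alike, with an SD of 0.12, beside 0.47 in C, 0.45 in MF and 0.25 in INT.

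C8a and C8b encode the alpha and beta chains of C8, the component that inserts the growing complex into the membrane. C8a ranged from 11.18 to 11.70 in C (median 11.38), 11.15 to 11.69 in MF (median 11.40), 11.33 to 11.71 in INT (median 11.49) and 9.19 to 10.18 in CR (median 9.78). Mice of the other diets formed a narrow band and the 6 CR mice lay well below it. The log2 difference was -1.73 (SE 0.13, adjusted p = 3.06e-10) for CR against C, -1.72 (SE 0.13, adjusted p = 3.36e-10) for CR against MF and 1.82 (SE 0.13, adjusted p = 1.14e-10) for INT against CR, or 3.31-fold, 3.30-fold and 3.54-fold.

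C8b was more variable, with the widest spread within diets of the 33 genes (pooled SD 0.47). It ranged from 10.94 to 12.44 in C (median 11.51), 10.25 to 12.06 in MF (median 11.21), 11.47 to 12.09 in INT (median 11.82) and 10.08 to 10.88 in CR (median 10.39). CR did not overlap with C or INT but overlapped with MF. The log2 difference was -1.06 (SE 0.24, adjusted p = 0.00267) for CR against C, -0.75 (SE 0.24, adjusted p = 0.0285) for CR against MF and 1.35 (SE 0.24, adjusted p = 0.000265) for INT against CR. The call against MF ended when any of 7 mice was left out, with the highest adjusted p (0.0732) without CR replicate 2. In the set of replicates 5 to 7 alone, the CR against C difference was -0.88 with an adjusted p of 0.271, and in replicates 1 to 4 it was -1.15 with an adjusted p of 0.0211. For CR against MF the call was made in neither set.

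C9, whose copies line the wall of the pore, ranged from 11.03 to 11.58 in C (median 11.10), 10.84 to 11.38 in MF (median 11.13), 11.20 to 11.52 in INT (median 11.37) and 10.12 to 10.93 in CR (median 10.47). CR overlapped with MF only. C9 fell by 0.72 (SE 0.11, adjusted p = 3.19e-05) in CR against C and by 0.66 (SE 0.11, adjusted p = 9.01e-05) against MF, and it was 1.88-fold higher in INT than in CR (log2 difference 0.91, SE 0.11, adjusted p = 1.24e-06). Within replicates 5 to 7 the CR against C difference was -0.74 with an adjusted p of 0.0536, and the CR against MF difference was -0.63 with an adjusted p of 0.109.

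The remaining terminal genes were not called in any comparison. C8g, the gamma chain of C8, ranged from 12.63 to 12.80 in C, 12.44 to 12.87 in MF, 12.62 to 12.86 in INT and 12.53 to 12.70 in CR, so the diets overlapped. Its CR against C difference was -0.13 (SE 0.06, adjusted p = 0.118). Hc, which encodes C5, ranged from 11.79 to 12.10 in C, 11.72 to 12.07 in MF, 11.94 to 12.05 in INT and 11.92 to 12.18 in CR. Its difference was 0.07 (SE 0.06, adjusted p = 0.455) for CR against C and -0.03 (adjusted p = 0.819) for INT against CR.

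**Figure D2:**
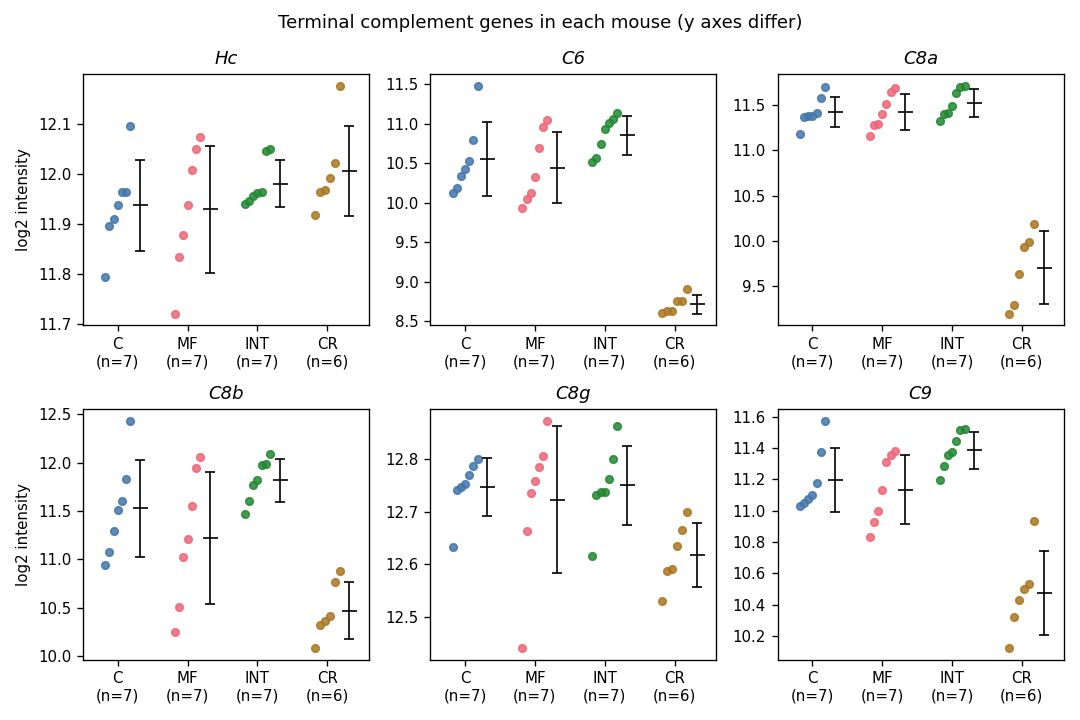
Log2 intensity of Hc, C6, C8a, C8b, C8g and C9 in each mouse by diet (points), with the mean and SD (bars); the vertical axes differ between panels. The 6 CR mice lie between 8.60 and 8.91 for C6 and between 9.19 and 10.18 for C8a, below every mouse of the other diets, while Hc overlaps between all diets.

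C8a and C8b are neighbours in the mouse genome, with no other protein-coding gene between them, and their sequences just upstream of the start are shown because these chains of C8, unlike C8g, were called in all 3 comparisons with CR. Both are the 250 bases before the RefSeq start in the orientation of the gene, on GRCm38.p6, C8a at chr4:104876399-104876648 on the minus strand and C8b at chr4:104766067-104766316 on the plus strand. Capitals mark matches, on either strand, to 4 short motifs: the STAT motif TTCNNNGAA, the HNF1 motif GTTAAT, the forkhead motif TGTTTAC and the C/EBP motif TTGCNNAA. These occur in 7.02%, 6.43%, 3.17% and 9.56% of 32851 promoters of the same length.
C8a: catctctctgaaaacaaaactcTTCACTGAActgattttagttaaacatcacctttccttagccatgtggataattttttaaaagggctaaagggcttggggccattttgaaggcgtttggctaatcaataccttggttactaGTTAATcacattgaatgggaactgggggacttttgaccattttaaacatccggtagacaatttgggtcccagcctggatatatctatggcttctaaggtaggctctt
C8b: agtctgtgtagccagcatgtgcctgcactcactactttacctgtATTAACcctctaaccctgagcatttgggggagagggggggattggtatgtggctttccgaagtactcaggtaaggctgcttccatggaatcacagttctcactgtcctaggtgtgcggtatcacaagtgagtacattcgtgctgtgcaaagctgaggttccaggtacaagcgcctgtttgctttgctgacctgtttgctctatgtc
C8a held a STAT match 228 bases and an HNF1 motif 107 bases before the start, and C8b an HNF1 motif 206 bases before it. A promoter sequence was used for 25 of the 33 genes. Among them 5 held the STAT motif, 7 the HNF1 motif, 1 the forkhead motif and 5 the C/EBP motif, which describes letters and not binding.

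Among the genes that start complement, the mannose-binding lectins moved in opposite directions. Mbl1, which encodes mannose-binding lectin A, ranged from 9.81 to 10.14 in C (median 10.003), 10.01 to 10.30 in MF (median 10.12), 9.85 to 10.26 in INT (median 10.14) and 9.08 to 9.52 in CR (median 9.28). Every CR mouse lay below every mouse of the other diets. Mbl1 fell by 0.69 (SE 0.08, adjusted p = 4.58e-07) in CR against C and by 0.85 (SE 0.08, adjusted p = 1.41e-08) against MF, and it was 1.74-fold higher in INT than in CR (log2 difference 0.80, SE 0.08, adjusted p = 4.15e-08).

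Mbl2, which encodes mannose-binding lectin C, ranged from 8.65 to 9.36 in C (median 8.93), 8.56 to 9.17 in MF (median 9.03), 8.68 to 9.26 in INT (median 8.94) and 9.17 to 9.42 in CR (median 9.26). CR lay at the top of the range and overlapped with every other diet. The gene was higher in CR by 0.31 (SE 0.10, adjusted p = 0.0316) against C and by 0.31 (SE 0.10, adjusted p = 0.0269) against MF, and lower in INT than in CR by a log2 difference of -0.32 (SE 0.10, adjusted p = 0.0316). Leaving out 1 mouse at a time ended the call against C for 7 of the 27 mice, with the highest adjusted p (0.0776) without CR replicate 6, and it ended the call against MF for 3 mice and that of INT against CR for 6. Mbl2 was called in neither array set, with CR against C differences of 0.28 (adjusted p = 0.194) in replicates 1 to 4 and 0.39 (adjusted p = 0.282) in replicates 5 to 7.

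C2 and Cfb are neighbouring genes that encode the matching proteases of the classical and alternative pathways, and they too went opposite ways. C2 ranged from 9.08 to 9.72 in C (median 9.34), 9.07 to 9.43 in MF (median 9.20), 9.00 to 9.53 in INT (median 9.14) and 8.77 to 9.17 in CR (median 8.97), with overlap between all diets. It fell by 0.38 (SE 0.10, adjusted p = 0.00659) in CR against C, and the difference from MF was -0.24 (adjusted p = 0.0861). The CR against C difference of C2 was -0.37 (adjusted p = 0.0233) in replicates 1 to 4 and -0.35 (adjusted p = 0.261) in replicates 5 to 7. Cfb ranged from 11.51 to 11.66 in C (median 11.60), 11.53 to 11.77 in MF (median 11.67), 11.53 to 11.72 in INT (median 11.68) and 11.73 to 11.93 in CR (median 11.80). CR lay above C and INT and overlapped with MF. Cfb was higher in CR by 0.22 (SE 0.05, adjusted p = 0.00203) against C and by 0.14 (SE 0.05, adjusted p = 0.0342) against MF. The call against MF ended without any of 5 mice, with an adjusted p of up to 0.0983 without CR replicate 4, and that of INT against CR, at -0.15 (SE 0.05, adjusted p = 0.0392), ended without any of 6 and with a replicate block (adjusted p = 0.0501). The CR against C difference of Cfb was 0.25 (adjusted p = 0.0375) in replicates 1 to 4 and 0.17 (adjusted p = 0.296) in replicates 5 to 7, and its other calls were made in neither set. Masp1, a protease that works with the lectins, was called in no comparison and ranged from 10.81 to 11.27 over all mice.

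Among the complement inhibitors, Cfi, Serping1 and Vtn differed little. C4bp and Clu, inhibitors from another list given further below, were called lower in CR against C, at -0.53 and -0.24. Cfi, the protease that cuts C3b and C4b, ranged from 11.55 to 11.71 in C, 11.53 to 11.75 in MF, 11.50 to 11.84 in INT and 11.72 to 11.90 in CR, so CR was above C and overlapped with MF and INT. It was higher in CR by 0.19 (SE 0.05, adjusted p = 0.0133) against C and by 0.17 (SE 0.05, adjusted p = 0.027) against MF. The call against MF ended without any of CR replicate 4, MF replicate 3 and MF replicate 4, with adjusted p of up to 0.0708, and that of INT against CR, at -0.16 (adjusted p = 0.0399), without any of 9 mice. Cfi was called in neither array set, with CR against C differences of 0.21 (adjusted p = 0.0688) and 0.17 (adjusted p = 0.372). Serping1, which encodes the C1 inhibitor, ranged from 12.56 to 12.69 in C, 12.54 to 12.70 in MF, 12.62 to 12.71 in INT and 12.35 to 12.62 in CR. CR held the lowest mice, overlapped with C and MF and lay below INT. It fell by 0.14 (SE 0.05, adjusted p = 0.0316) in CR against C and was higher in INT than in CR by 0.17 (SE 0.05, adjusted p = 0.00992). The call against C ended without any of 6 mice, with an adjusted p of up to 0.109 without CR replicate 2, and when only these diets were fitted (adjusted p = 0.104). Serping1 was called in neither array set, with INT against CR differences of 0.15 (adjusted p = 0.207) and 0.21 (adjusted p = 0.242). Vtn, vitronectin, which keeps the terminal complex out of membranes, ranged from 13.07 to 13.27 over all mice and was called in no comparison.

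The vitamin K-dependent genes that were called were all higher in CR. Of 6 tested, 2 were higher and 0 lower in CR against C (33.3%, beside 17.5% of all genes). In CR against MF 3 were higher and 0 lower (50%, beside 19.8%), and in INT against CR 0 were higher and 2 lower (33.3%, beside 15.0%). When each array was centred on its median, only the F10 calls against C and against MF remained of these. F10, the factor that converts prothrombin to thrombin, ranged from 10.52 to 10.86 in C (median 10.75), 10.39 to 10.86 in MF (median 10.69), 10.71 to 10.87 in INT (median 10.83) and 10.94 to 11.11 in CR (median 11.05). Every CR mouse lay above every mouse of the other diets. F10 was higher in CR by 0.29 (SE 0.07, adjusted p = 0.00344) against C and by 0.38 (SE 0.07, adjusted p = 0.000235) against MF, and lower in INT than in CR, at -0.22 (SE 0.07, adjusted p = 0.0314). The last call ended without any of 5 mice, with an adjusted p of up to 0.0729 without CR replicate 4. Within the array sets F10 was called against MF in replicates 1 to 4 alone, and its CR against C differences were 0.27 (adjusted p = 0.065) and 0.34 (adjusted p = 0.126).

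Pros1, protein S, a cofactor of the anticoagulant protein C, ranged from 8.62 to 8.94 in C, 8.55 to 9.09 in MF, 8.40 to 9.18 in INT and 9.04 to 9.19 in CR. CR was above C and overlapped with MF and INT, and its SD was only 0.05. The log2 difference was 0.28 (SE 0.09, adjusted p = 0.0407) for CR against C, 0.26 (SE 0.09, adjusted p = 0.0475) for CR against MF and -0.29 (SE 0.09, adjusted p = 0.0376) for INT against CR. These calls ended without any of 11, 20 and 9 mice, with adjusted p of up to 0.0885 without C replicate 2, 0.109 without MF replicate 2 and 0.0918 without INT replicate 4. Pros1 was called in neither array set, with CR against C differences of 0.29 (adjusted p = 0.163) and 0.26 (adjusted p = 0.395). F7, which starts clotting together with tissue factor, ranged from 9.29 to 10.07 in C, 9.22 to 10.05 in MF, 9.64 to 10.09 in INT and 9.78 to 10.07 in CR, with overlap throughout. Its call in CR against MF, 0.34 (SE 0.12, adjusted p = 0.0499), was lost in 28 of the 38 alternative settings. For F2, F9 and Proc, which encode prothrombin, factor IX and protein C, the CR against C differences were 0.11 (adjusted p = 0.0872), -0.09 (adjusted p = 0.283) and -0.03 (adjusted p = 0.796).

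Of the other clotting factors, F11 was the gene with a large difference. F11, whose product activates factor IX, ranged from 8.40 to 9.30 in C (median 8.73), 8.16 to 9.25 in MF (median 8.78), 8.52 to 9.32 in INT (median 9.20) and 7.47 to 8.90 in CR (median 7.95). The lowest mice were CR mice, but the diets overlapped. The log2 difference was -0.78 (SE 0.20, adjusted p = 0.00726) for CR against C, -0.63 (SE 0.20, adjusted p = 0.0275) for CR against MF and 1.01 (SE 0.20, adjusted p = 0.000844) for INT against CR. Left out singly, 5 mice ended the call against MF, with an adjusted p of up to 0.0833 without CR replicate 3. The difference from C was -1.16 (adjusted p = 0.00747) in replicates 1 to 4 and -0.13 (adjusted p = 0.809) in replicates 5 to 7, and that from MF was -0.84 (adjusted p = 0.0311) and -0.20 (adjusted p = 0.717). For INT against CR the values were 1.05 (adjusted p = 0.0155) and 0.80 (adjusted p = 0.0806). Replicates 5 to 7 hold 2 CR mice, at 8.90 and 8.06. All 3 calls were kept when the array set was fitted as a block. The cause of the difference between the sets was not tested.

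Kng1, kininogen, ranged from 12.89 to 13.00 in C, 12.85 to 13.01 in MF, 12.95 to 13.03 in INT and 12.96 to 13.10 in CR. It was called in CR against MF alone, at 0.11 (SE 0.04, adjusted p = 0.0424), and the diets overlapped. That call ended without any of 8 mice, with an adjusted p of up to 0.104 without CR replicate 4, and was made in neither array set. F5, F8, F12 and F13b were called in no comparison. F8, the factor lost in haemophilia A, ranged from 9.07 to 9.45 in C, 9.09 to 9.46 in MF, 9.00 to 9.41 in INT and 9.15 to 9.41 in CR. F12, which starts the contact pathway, ranged from 11.54 to 11.85 in C, 11.46 to 11.65 in MF, 11.49 to 11.95 in INT and 11.64 to 11.88 in CR. F13b, the carrier subunit of the enzyme that cross-links fibrin, ranged from 9.74 to 10.01 in C, 9.52 to 10.14 in MF, 9.81 to 10.12 in INT and 9.86 to 10.14 in CR. The diets overlapped for each of these 3 genes.

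**Figure D3:**
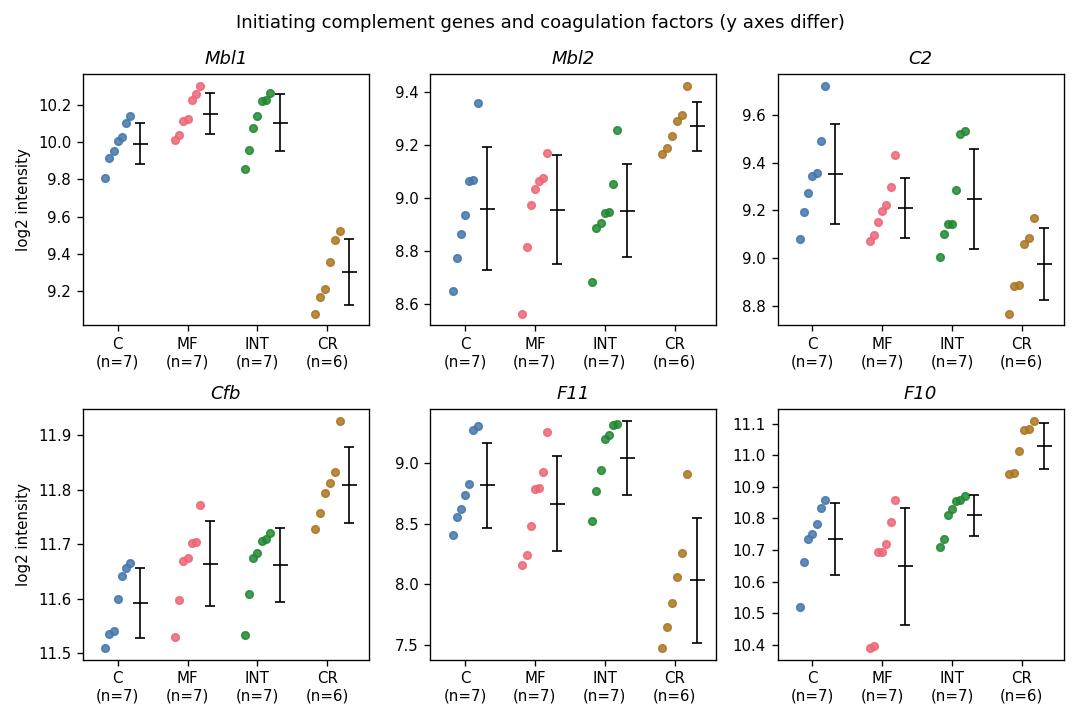
Log2 intensity of Mbl1, Mbl2, C2, Cfb, F11 and F10 in each mouse by diet (points), with the mean and SD (bars); the vertical axes differ between panels. All 6 CR mice lie below the other diets for Mbl1 and above them for F10, while CR overlaps with other diets for Mbl2, C2, Cfb and F11.

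Among the clotting inhibitors, Serpinc1 and Serpind1 showed small differences. Serpina10, an inhibitor from another list given further below, was called lower in CR against C, at -0.53. Serpinc1, antithrombin, ranged from 12.57 to 12.73 in C, 12.54 to 12.71 in MF, 12.65 to 12.77 in INT and 12.74 to 12.82 in CR, so CR lay above C and MF and overlapped with INT. It was higher in CR by 0.13 (SE 0.04, adjusted p = 0.0182) against C and by 0.15 (SE 0.04, adjusted p = 0.00627) against MF. The call against C ended when only these diets were fitted (adjusted p = 0.0616) and was made in neither array set (0.14, adjusted p = 0.145, and 0.12, adjusted p = 0.499). The difference from MF was 0.19 (adjusted p = 0.0377) in replicates 1 to 4 and 0.11 (adjusted p = 0.605) in replicates 5 to 7. Serpind1, heparin cofactor II, was not called, with 0.10 (adjusted p = 0.329) for CR against C. Of the fibrinolysis genes, Plg, plasminogen, differed by -0.03 in CR against C. Serpinf2, alpha-2-antiplasmin, which blocks plasmin, ranged from 11.95 to 12.38 in C, 12.12 to 12.37 in MF, 12.19 to 12.65 in INT and 11.91 to 12.36 in CR, and its largest difference was 0.22 for INT against CR (adjusted p = 0.0682).

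The fibrinogen genes were called in no comparison. Fga, the alpha chain, ranged from 11.31 to 12.00 in C (median 11.62), 11.46 to 12.24 in MF (median 11.71), 11.06 to 11.85 in INT (median 11.36) and 11.09 to 11.84 in CR (median 11.27). INT and CR were lower on average, with overlap between all diets, and the log2 difference was -0.33 (SE 0.15, adjusted p = 0.14) for CR against C, -0.40 (SE 0.15, adjusted p = 0.058) for CR against MF and -0.36 (SE 0.14, adjusted p = 0.392) for INT against MF. A second Fga probe set had diet means of 9.75 (SD 0.45) in C, 9.85 (SD 0.57) in MF, 9.15 (SD 0.48) in INT and 9.16 (SD 0.56) in CR. Fgb, the beta chain, differed by -0.08 (adjusted p = 0.401) and Fgg, the gamma chain, by -0.03 (adjusted p = 0.793) in CR against C.

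Fgg, Fga and Fgb lie side by side in the genome with no other protein-coding gene between them. Their 250 bases before the RefSeq start on GRCm38.p6 are shown because the chains of this protein varied together between mice, Fga at chr3:83025903-83026152 on the plus strand, Fgb at chr3:83049864-83050113 on the minus strand and Fgg at chr3:83007474-83007723 on the plus strand. Capitals mark the same 4 motifs.
Fga: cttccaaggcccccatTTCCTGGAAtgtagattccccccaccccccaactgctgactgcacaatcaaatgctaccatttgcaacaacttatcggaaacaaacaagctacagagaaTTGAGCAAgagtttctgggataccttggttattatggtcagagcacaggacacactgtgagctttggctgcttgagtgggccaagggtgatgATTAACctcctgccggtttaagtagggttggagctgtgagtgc
Fgb: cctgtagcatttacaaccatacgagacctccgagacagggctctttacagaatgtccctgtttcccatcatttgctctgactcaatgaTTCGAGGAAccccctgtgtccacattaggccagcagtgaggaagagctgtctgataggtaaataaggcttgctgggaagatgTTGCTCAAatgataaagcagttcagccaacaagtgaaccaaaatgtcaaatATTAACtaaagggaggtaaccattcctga
Fgg: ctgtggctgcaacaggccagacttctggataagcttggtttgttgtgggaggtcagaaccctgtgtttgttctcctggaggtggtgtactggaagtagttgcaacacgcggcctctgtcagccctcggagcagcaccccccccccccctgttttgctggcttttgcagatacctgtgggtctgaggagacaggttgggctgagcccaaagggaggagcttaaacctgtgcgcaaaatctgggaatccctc
Fga held a STAT match 234, a C/EBP match 135 and an HNF1 motif 43 bases before the start, and Fgb held the same 3 kinds of match, 162, 80 and 29 bases before it. Fgg held none of these letters in this window.

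A set of 6 pairs of genes that are neighbours or encode chains of a single protein was compared across the 21 mice of C, MF and INT. CR was left out because its mice form a cluster of their own. Fgb and Fgg had the highest Pearson r of the 6 pairs, 0.91 (permutation p = 1e-05, the smallest the 100000 permutations can give, adjusted p = 3e-05). Their Spearman rho was 0.79 (permutation p = 4e-05, adjusted p = 0.00012), below the 0.89 of C8a and C8b. Fga and Fgb had an r of 0.79 (permutation p = 3e-05, adjusted p = 6e-05) and a rho of 0.69 (p = 0.00083, adjusted p = 0.00125). For Fga and Fgg the r was 0.74 (permutation p = 0.0001, adjusted p = 0.00012) and the rho 0.70 (p = 0.00058, adjusted p = 0.00116). Without the 2 mice farthest from the median, r was 0.83, 0.68 and 0.58 for these pairs. Within replicates 1 to 4 it was 0.93, 0.90 and 0.87, and within replicates 5 to 7 it was 0.89, 0.68 and 0.64, the last 2 with exact permutation adjusted p of 0.0557 and 0.0569. The rank correlations within replicates 5 to 7 were 0.60, 0.38 and 0.45 and did not pass (exact permutation adjusted p = 0.194, 0.374 and 0.345).

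C8a and C8b had an r of 0.84 (permutation p = 1e-05, adjusted p = 3e-05) and a rho of 0.89 (p = 1e-05, adjusted p = 6e-05), and r was 0.83 without the 2 mice farthest from the median, 0.77 within replicates 1 to 4 and 0.91 within replicates 5 to 7. The C mouse of replicate 6 had the highest value of its diet for C6, C8a, C8b and C9, and the INT mouse of replicate 1 the lowest of its diet for the same 4 genes. F7 and F10, also neighbours, had an r of 0.75 (permutation p = 8e-05, adjusted p = 0.00012) and a rho of 0.56 (p = 0.00888, adjusted p = 0.0107). Without the 2 farthest mice the r was 0.55 (permutation p = 0.0142, adjusted p = 0.017) and the rho 0.41 (p = 0.0823, adjusted p = 0.0988), so the rank relation missed the threshold without them. Within replicates 1 to 4 r was 0.80 and rho 0.36 (permutation p = 0.258, adjusted p = 0.31), and within replicates 5 to 7 r was 0.84 and rho 0.78 (exact permutation p = 0.0172, adjusted p = 0.0516). C2 and Cfb had an r of 0.16 (permutation p = 0.481, adjusted p = 0.481) and a rho of 0.21 (p = 0.366, adjusted p = 0.366), an r of 0.06 without the 2 farthest mice, and an r of -0.19 within replicates 1 to 4 and 0.33 within replicates 5 to 7. With diet means removed, their r was 0.37 (permutation p = 0.0983, adjusted p = 0.0983) and their rho 0.40 (p = 0.0772, adjusted p = 0.0772). In that setting r lay between 0.68 and 0.93 for the other pairs.

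**Figure D4:**
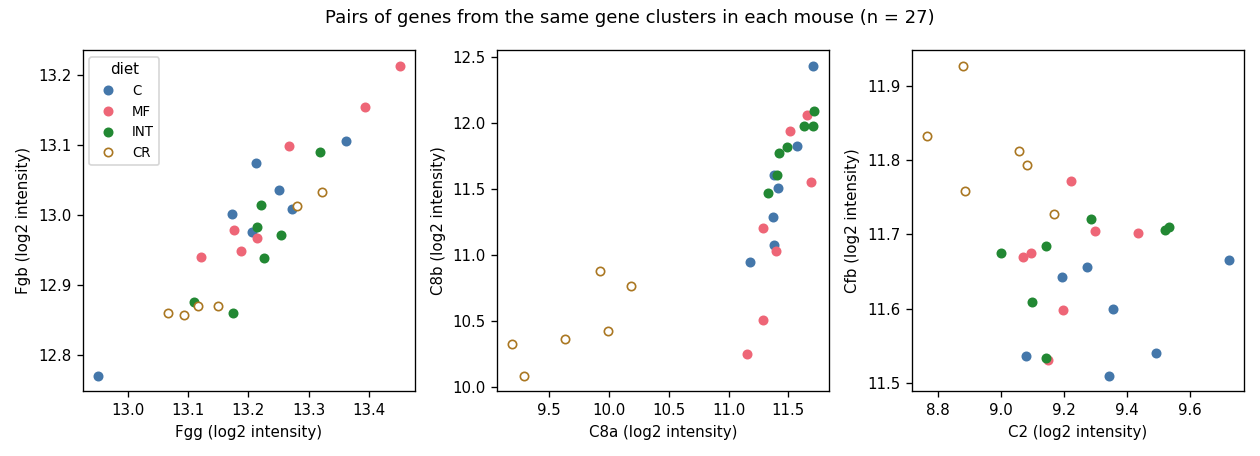
Log2 intensity of 2 genes plotted against each other for Fgg and Fgb, C8a and C8b, and C2 and Cfb, with 1 point per mouse (27 mice) and CR mice as open circles. Over the 21 mice of the other diets, r is 0.91, 0.84 and 0.16, and the CR mice lie below them for C8a.

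Other genes of complement were taken from a list by function. Of 23 tested, 2 were higher and 3 lower in CR against C (21.7%, beside 17.5% of all genes). In CR against MF 3 were higher and 4 lower (30.4%, beside 19.8%), and in INT against CR 3 were higher and 4 lower (30.4%, beside 15.0%). C4bp, which encodes an inhibitor of the classical pathway, differed most steadily, at -0.53 (SE 0.06, adjusted p = 1.81e-07) for CR against C, -0.58 (SE 0.06, adjusted p = 4.68e-08) for CR against MF and 0.49 (SE 0.06, adjusted p = 5.72e-07) for INT against CR. C1s1, a protease of the first complement component, was -0.25 for CR against C (SE 0.06, adjusted p = 0.00429), and Clu, clusterin, an inhibitor of the terminal complex, was -0.24 (SE 0.04, adjusted p = 0.00025). Fcna, ficolin A, was higher by 0.47 (SE 0.15, adjusted p = 0.0263) and Colec10, a collectin, by 0.28 (SE 0.10, adjusted p = 0.0495).

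Among the 4 complement genes called lower in INT than in CR, C1qa, a chain of C1q, differed by -0.40 (SE 0.12, adjusted p = 0.0219) and Cfp, properdin, which stabilises the alternative pathway convertase, by -0.51 (SE 0.13, adjusted p = 0.00784). Vsig4, a complement receptor of Kupffer cells, differed by -0.49 (SE 0.15, adjusted p = 0.029). The other C1q chains, C1qb and C1qc, differed by -0.28 (adjusted p = 0.28) and -0.44 (adjusted p = 0.0576), and the receptors C3ar1 and C5ar1 by 0.04 (adjusted p = 0.899) and 0.08 (adjusted p = 0.851). Of 10 Kupffer cell and macrophage markers, 7 were called lower in INT than in CR (70%, beside 15.0% of all genes, 6.62% lower). In CR against C 2 were called higher (20%, beside 17.5%), and in CR against MF 3 (30%, beside 19.8%). The summed linear intensity of the 10 ranged from 4226 to 6598 in C, 3553 to 5722 in MF, 3268 to 4779 in INT and 4925 to 7372 in CR. C1qa and Vsig4 are themselves among those 10, and the part of these cells in the result was not tested. Of 8 markers of fat cells, the defining Adipoq and Lep were below an intensity of 20 in every mouse. Of the other 6, 1 was higher and 2 lower in CR against C (50%, beside 17.5% of all genes). The sum of all 8 ranged from 533 to 1822 in C, 518 to 2453 in MF, 518 to 1123 in INT and 405 to 627 in CR. The list includes Cidec, which the paper measured in liver as a gene of lipid droplet formation. Its log2 intensity reached 10.78 in MF and 6.06 in CR, so the sum does not measure fat cells alone. The part of fat cells was not tested.

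Of 25 other coagulation genes tested, 0 were higher and 4 lower in CR against C, the same numbers in CR against MF, and 2 were higher and 0 lower in INT against CR. These shares of 16%, 16% and 8% do not exceed the 17.5%, 19.8% and 15.0% of all genes called in either direction. In the same directions, 9.05% and 11.2% of all genes were called lower and 8.37% higher. F2r, a receptor that thrombin cuts, differed by -1.17 (SE 0.12, adjusted p = 1.5e-07) for CR against C, -1.04 (SE 0.12, adjusted p = 9.49e-07) for CR against MF and 0.97 (SE 0.12, adjusted p = 2.59e-06) for INT against CR. F3, tissue factor, the trigger of clotting, differed by -0.49 (SE 0.16, adjusted p = 0.0352) for CR against C and 0.72 (SE 0.16, adjusted p = 0.00246) for INT against CR. Serpina10, the protein Z-dependent inhibitor, fell by 0.53 (SE 0.18, adjusted p = 0.0459) in CR against C. Among 5 vitamin K cycle genes, Nqo1, a quinone reductase, was higher by 0.74 (SE 0.24, adjusted p = 0.0313) in CR against C, and Ggcx, the carboxylase itself, differed by 0.07 (adjusted p = 0.484).

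Transcription factors known to act on liver genes were listed as well. Of 16 tested, 2 were higher and 3 lower in CR against C (31.2%, beside 17.5% of all genes). Cebpd fell by 0.59 (SE 0.12, adjusted p = 0.00119), Nr1h4 by 0.30 (SE 0.05, adjusted p = 3.59e-05) and Ppara by 0.35 (SE 0.08, adjusted p = 0.00239) in CR against C. Nr5a2 was higher by 0.24 (SE 0.07, adjusted p = 0.0206) and Cux2 by 1.85 (SE 0.09, adjusted p = 4.83e-14). Hnf4a, Cebpa and Stat3 differed by 0.11 (adjusted p = 0.385), -0.24 (adjusted p = 0.143) and 0.01 (adjusted p = 0.979). Of 23 acute phase genes tested, 0 were higher and 9 lower in CR against C (39.1%, beside 17.5% of all genes), with Saa2 at -3.00 (SE 0.74, adjusted p = 0.00482). In CR against MF 0 were higher and 11 lower (47.8%, beside 19.8%). In INT against CR 3 were higher and 0 lower (13.0%), beside 15.0% of all genes called in either direction and 8.37% called higher.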

How the data were processed

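Total RNA of 27 livers, with an integrity number above 8.0, was hybridised by the authors to Affymetrix Mouse Gene 1.1 ST arrays. The deposited values are log2 intensities that the authors obtained by robust multiarray average, which corrects background, quantile-normalises across arrays and summarises probe sets. Quantile normalisation gives all arrays nearly the same distribution, so differences are relative to the other genes. The methods describe probe sets per Entrez gene, whereas the table used here held 35556 probe sets of the maker. Of these, 21218 named 1 gene, 1881 named several and 12457 named none, and only the first kind was used. Where a gene had more than 1 probe set (1386 of 18820 genes), the probe set of highest mean was kept. A gene table of assembly GRCm38.p6 matched 18790 symbols, and promoter sequences came from RefSeq on the same build. The build of the array annotation is not given in the sources used here.

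Groups followed the diet in the labels, and each array is a separate mouse. No pair of arrays shared more than 138 identical values. A gene entered the tests if at least 5 of the arrays exceeded a linear intensity of 20 (13603 genes). limma 3.58.1 in R 4.3.3 fitted all 27 arrays with diet as the factor, p was adjusted by Benjamini-Hochberg over all genes, and the procedure was tested on simulated data. Covariation used 2-sided permutation tests, exact for groups under 10, in numpy 2.4.6, with ranks from scipy 1.17.1. Arrays carry no read depth, and the number of mice limits the precision. Same-numbered mice of different diets were checked for pairing. The correlation of their deviations from the diet means ranged from -0.249 to 0.304 over 39 pairs, with a median of 0.08. The median was 0.008 over 102 pairs of other numbers in the same array set, and -0.04 over 132 pairs across array sets. These values do not exclude a pairing. The numbers were not taken as pairs in the main fit, and a replicate block was fitted as an alternative.

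The genes, their roles and the other lists were chosen with earlier results of these data known, and support nothing by themselves. Named were all listed genes with a usable probe set, with ranges by diet for those called and the 5 uncalled genes of widest spread (Fga, Serpinf2, F13b, F8 and F12), and up to 6 called genes of each other list. C8g and Hc were given ranges to complete the terminal complex, and genes of the other lists that were not called were named for comparison, after their values were seen. Alternatives were other filters and scalings, other variance models, the array set, a replicate block, each array set alone and each mouse left out.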

Additional observations from a re-analysis of the deposited data

Results flagged for a closer look

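A value far from the rest of its diet was found in 6 of 132 groups (33 genes in 4 diets), where chance marks about 1 group in 20. All differences were small. The C mouse of replicate 5 was lowest for C8g, at 12.63, with the next C mouse at 12.74 and the highest at 12.80, and for Fgb, at 12.77, with the next at 12.98 and the highest at 13.11. F12 had a high C mouse, replicate 6, at 11.85, with the next at 11.62, and a low MF mouse, replicate 4, at 11.46, with the next at 11.57. The CR mouse of replicate 2 was lowest for F2, at 12.53, with the next at 12.60. The INT mouse of replicate 3 was highest for Serpinc1, at 12.77, with the next at 12.68.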

How the results depend on the processing

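C6, C8a and Mbl1 stayed called in all 3 comparisons with CR under all 38 alternatives, as did C9 for INT against CR, which makes 10 of the 40 calls. Leaving out any 1 mouse kept 24 of the 40. The number of genes called ranged from 11 to 14 for CR against C, from 8 to 16 for CR against MF and from 7 to 13 for INT against CR when 1 mouse was left out. It fell to 9 without CR replicate 2, 8 without CR replicate 4 and 8 without CR replicate 6 for CR against MF, and to 7 without CR replicate 6 for INT against CR. Replicates 1 to 4 alone gave 8, 7 and 6 calls, and replicates 5 to 7 alone gave 3, 3 and 4, with fewer mice in each. Fitting only the 2 groups compared gave 8 calls for CR against MF. With the replicate block, 14, 12 and 12 genes were called; Cfb for INT against CR and Pros1 and Kng1 for CR against MF were lost. INT against C, INT against MF and MF against C gave 0 calls among the 33 genes under every setting. Within replicates 5 to 7, r was 0.68 for Fga and Fgb and 0.64 for Fga and Fgg. For C2 and Cfb, r was -0.0028 with array set means removed, 0.37 with diet means removed and -0.19 within replicates 1 to 4. The causes of these changes were not tested. The planned comparison of Cfd with Cidec was not run, since Cfd was not analysed here. Arrays bound precision by signal over background, and the 6 CR mice are shared by all comparisons that gave calls.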
